A study of Mus musculus with 2 samples.

Results

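The first block of the FLAG-HLF peak file is described here, the top 9.99% of its lines. It holds 29 peaks at genes of 6 neuronal lists and 286 at other genes. The peaks were chosen by their place in the deposited order of the lines, and because peaks at genes of neurons had been seen to gather there. The 2838 peaks on later lines, which make up the rest of the file, serve for comparison. HLF (hepatic leukemia factor) was profiled by chromatin immunoprecipitation with sequencing in mouse LSK cells, the stem and progenitor fraction of the marrow that lacks lineage markers and carries Sca-1 and c-Kit. Wild-type cells were infected with a pMX retrovirus that carried 3xFLAG-Hlf and GFP, or with a pMX-GFP control virus, and were kept for 5 days in medium with SCF, IL-7, Flt3L and IL-3. Both arms were precipitated with an antibody against FLAG, with 1 library each, and HLF was thus expressed from a virus. No peaks of the GFP control were analysed here, so no background from that arm can be set beside any value below. Expression was not measured, and the LSK label was not checked against markers.

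HLF is a PAR bZIP factor, a leucine zipper protein of the family of DBP and TEF, and binds a palindromic DNA site of the TTACGTAA type. Genes of neurons are held silent in most other cells by the repressor REST, also called NRSF. REST binds a long element named RE1, found at many genes for synaptic proteins, neuropeptides and ion channels. Its left and right parts contact different zinc fingers of the protein.

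Every peak is an interval of 400 bases without a height or a significance, so depth is unknown, and what set the order of the lines is not known here. A peak was assigned to the coding gene that holds its centre, or else to the one with the nearest end, at any distance. Gene ends are the bounds of the gene in the RefSeq table, and starts and stops are not told apart by them. The lists were drawn up with earlier results of these lines known. Counts of peaks per list are therefore a description, with no test, and the peaks of 1 library are not replicates. The intervals given are exact Clopper-Pearson intervals at 95% and cover counting error only. Their overlap, or its lack, is stated as a description and is not a test of whether shares differ.

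Bases were available where a peak overlapped a promoter window of the RefSeq table (build GRCm38.p6), 250 bases before to 50 bases after a gene's start. In the first block, 24 peaks overlapped such a window, and 175 did on later lines. RE1 was searched there on both strands as TTCAGCACC, 2 bases of any kind and GGACAGCGC, with up to 4 mismatches in the 18 compared bases. The 6 windows with a match are shown to make the sites readable. The lines were chosen for their genes of neurons, where RE1 is common, so this search is not independent of that choice. Each run reads along the strand on which the site runs forward, 5′ to 3′, and capitals mark the 20 bases of the RE1 match.

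Lhx3 (line 206, chr2:26208253-26208312, minus strand): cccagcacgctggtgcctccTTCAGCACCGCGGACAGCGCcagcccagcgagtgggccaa
Snap25 (line 18, chr2:136714333-136714362, plus strand): gacctTTCAGCACCGCGGACAGCGAtccgg
Lhfpl5 (line 276, chr17:28575622-28575681, minus strand): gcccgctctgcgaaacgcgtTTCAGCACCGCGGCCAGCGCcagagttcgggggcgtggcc
Hrh3 (line 304, chr2:180104554-180104613, plus strand): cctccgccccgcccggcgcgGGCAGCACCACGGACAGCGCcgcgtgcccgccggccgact
Fbll1 (line 35, chr11:35799036-35799095, plus strand): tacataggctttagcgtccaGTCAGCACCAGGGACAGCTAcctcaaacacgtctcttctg
Rph3a (line 219, chr5:121009594-121009653, plus strand): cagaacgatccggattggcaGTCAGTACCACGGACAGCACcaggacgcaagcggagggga

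The match at Lhx3, a LIM homeodomain factor of motor neurons and the pituitary, had 0 mismatches, and this was the only window of the table with a complete match. The sites at Snap25, a SNARE protein of synaptic vesicle fusion, and at Lhfpl5, a component of the hair cell's sensory channel complex, had 1 mismatch each. The site in the promoter of Hrh3, the histamine H3 receptor of neurons, had 2. Those at Fbll1, a gene related to fibrillarin, and at Rph3a, a Rab3 effector on synaptic vesicles, had 3. The window at the Snap25 peak belongs to Gm32659, a long noncoding RNA gene that starts there. Snap25, Lhx3 and Rph3a are in the neuronal lists described below, and the other 3 genes are not.

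These sites lay close to the middle of their peaks. The centre of the match was 7 bases from the peak centre at Snap25, 8 at Lhfpl5, 11 at Fbll1, 12 at Rph3a, 15 at Lhx3 and 20 at Hrh3. All 6 were wholly inside the 400 bases. In the other 18 windows of the first block, the closest RE1 match had over 4 mismatches. Its centre there was 4 to 362 bases from the peak centre, with a median of 173.5. In the 172 later windows with over 4 mismatches the median was 116.5. The windows covered 252 to 300 bases of the 6 peaks with RE1, but 26 to 300 bases of the other 18. Where little of a peak was covered, a match near its centre could not be found, so these distances are not measured alike.

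RE1 was thus found in 25% of the overlapped windows in the first block (6 of 24, 95% exact interval 9.77 to 46.7%). On later lines it was found in 3 of 175 windows, or 1.71% (0.355 to 4.93%), and over all 32851 windows of the table in 0.481%. Of the 6 windows, 3 were among the 7 at genes of the neuronal lists. At other genes RE1 was in 3 of 17 windows of the first block (17.6%, 3.799 to 43.4%) and in 3 of 174 later ones (1.72%, 0.357 to 4.96%), and these intervals overlapped. All these shares are a description. Windows differ in composition. The median GC content was 60.8% in the 24 windows, 62.0% in the 6 with RE1, 56.0% in the 175 later ones and 52.7% over the table, and its part in the result was not tested.

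Of the 3 later matches, the one at Osbp2, a gene for an oxysterol-binding protein (line 928), was like those above, with 1 mismatch and its centre 9 bases from the peak centre. It is shown for that likeness (chr11:3774771-3774830, plus strand).

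Osbp2: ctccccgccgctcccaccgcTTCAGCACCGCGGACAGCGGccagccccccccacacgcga

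The matches at Irf2bp1 (line 1035, 3 mismatches) and Lrrc73 (line 878, 4 mismatches) lay 122 and 248 bases from the peak centre, the latter outside the peak. Up to 3 mismatches left 6 of 24 and 2 of 175 windows.

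**Figure D1:**
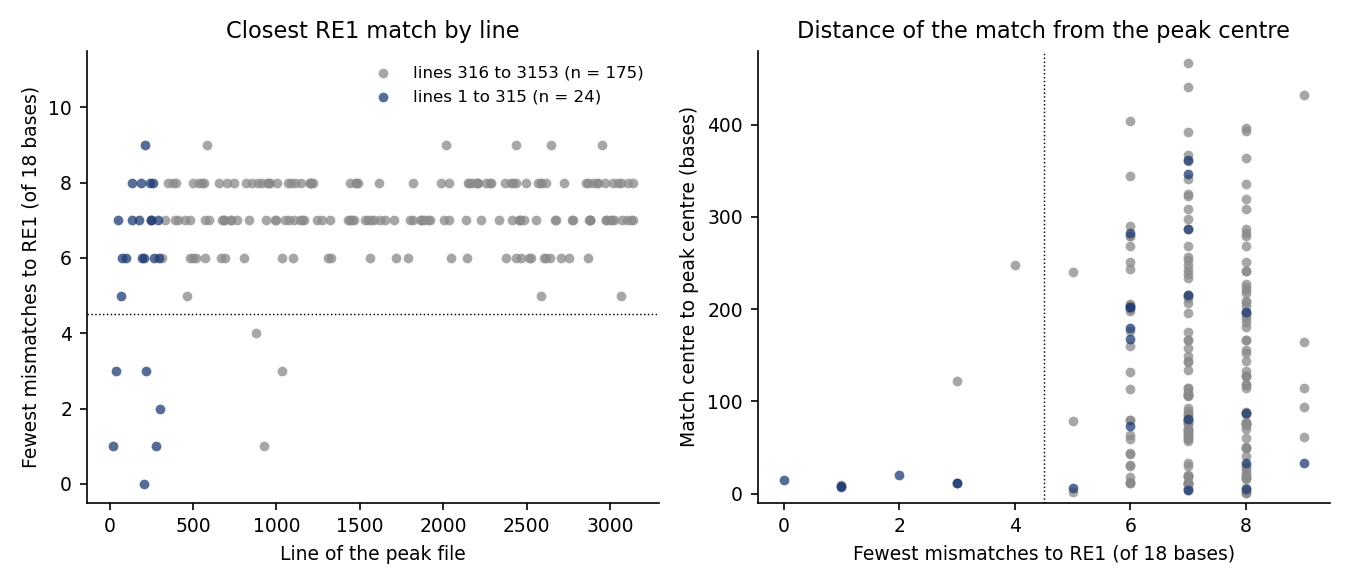
Closest RE1 match in the promoter windows that peaks overlapped, 1 point per peak, for the first block of the file (24 peaks) and the later lines (175 peaks). Left, the fewest mismatches of 18 compared bases against the line; right, the distance in bases from the centre of that match to the peak centre against the mismatches. The dotted line parts up to 4 mismatches from more; the 6 points of the first block on the low side lie within 20 bases of the peak centre.

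Read from the side of the windows, the share with a peak was larger where RE1 matched closely. Among windows with up to 4 mismatches, 9 were overlapped by a peak on any line (5.70%), 6 of them by one of the first block. With exactly 4 mismatches, 1 of 121 windows was overlapped (0.826%). Among the 32693 windows without such a match, 218 were overlapped (0.667%). The closest matches, with up to 2 mismatches, numbered 12 sites, of which 5 lay inside a peak and 4 inside one of the first block. The 7 sites in no peak were at Gria2, Ttc9b, Scamp5, Celsr3, Gm31317, Ogdhl and Syn1. The one at Celsr3 lay 1.15 kb from the peak on line 2, and the one at Syn1 on X was farthest from a peak, at 7266 kb.

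The Lhx3 peak held the complete RE1 upstream of a start site. Its 218 bases from the peak's upper bound to the Lhx3 start are given to show the setting of the site (chr2:26208250-26208467, minus strand, RE1 in capitals).

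Lhx3, upstream part of the peak: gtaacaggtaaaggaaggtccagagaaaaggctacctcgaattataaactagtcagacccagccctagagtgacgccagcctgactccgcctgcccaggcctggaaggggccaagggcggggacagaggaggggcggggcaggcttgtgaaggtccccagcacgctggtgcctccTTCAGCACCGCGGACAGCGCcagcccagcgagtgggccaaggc

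Sites of HLF's own type were searched in the same windows as TTACGTAA and TTATGTAA on both strands. Other variants of the site were not counted as such. In the first block 1 of the 24 windows held one (4.17%, 0.105 to 21.1%), that of Clec12a, a C-type lectin of myeloid cells (line 187). In the later lines 14 of 175 did (8.00%, 4.44 to 13.1%), against 1.06% of all windows. The intervals of the first and later lines overlapped. The site at Clec12a lay 52 bases from the peak centre and is shown as the counterpart of the RE1 sites (chr6:129350137-129350184, plus strand, site in capitals).

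Clec12a: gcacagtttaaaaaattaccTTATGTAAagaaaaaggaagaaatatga

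The only window of the first block with a PAR bZIP site, that of Clec12a, had no RE1. A joint window was hardly to be found there, with 1 window of that kind and 6 with RE1 among the 24. On later lines the window of Irf2bp1 held both. Neither PAR bZIP form was in the window of Per1, a clock repressor with a peak on line 298. C/EBP factors are bZIP proteins with a related site. The letters TTGCNNAA, which neither PAR bZIP form matches, were in 7 of the 24 windows (29.2%) and 58 of the 175 (33.1%), against 10.8% of the table. The 7 windows with these letters were at Clec12a, Lrp11, Ccp110, Dhx33, Tmco5, Ptgs2 and Per1. None of these 7 had RE1, but the counts are small, and whether the sites avoid each other was not tested.

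The 482 genes of the 6 neuronal lists, 2.20% of coding genes, took 29 peaks of the first block, or 9.21% (6.25 to 13.0%). On later lines they took 65 of 2838, or 2.29% (1.77 to 2.91%), and 2.98% over all lines. The share in the first lines was 4.02 times that in the rest, and it is a description, since these lines were chosen for it. The 29 peaks fell at 27 genes, 5 of which also had a peak on a later line. Without the 15 genes already named in an earlier account of these lines, 12 peaks were left in the first block (3.81%, 1.98 to 6.56%) against 63 in the rest (2.22%, 1.71 to 2.83%). These intervals overlapped. That count removes genes because of their peaks in these lines, so it is low by construction.

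Synaptic vesicle genes had 5 peaks in the first block (1.59%) against 12 of the later 2838 (0.423%), and 0.539% over all lines. They were at 4 of the 55 genes. Snap25 had its peak 0.901 kb inside a gene end. Unc13a, which primes vesicles for release, had one 0.044 kb inside (line 69). Bsn, the active zone protein bassoon, had one 0.260 kb inside (line 248). Rph3a had 2, one 0.481 kb inside and another 58.8 kb outside (line 293). All but the last were within 1 kb of an end.

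Peptides, granule proteins and transmitter enzymes had 5 peaks (1.59%) against 5 later ones (0.176%), with 0.317% over all lines. Vgf, a granule protein and peptide precursor, had 2 peaks inside, 2.14 and 3.05 kb from an end (lines 31 and 50), and their centres were 0.910 kb apart. Sst, the somatostatin precursor, had 1 peak 0.777 kb inside (line 54). Chgb, the granule protein chromogranin B, had 1 peak 0.176 kb inside (line 99). Chat, the enzyme that makes acetylcholine, had 1 peak 1.87 kb outside (line 241). Of the list's 10 peaks in the whole file, 50% were in the first block, the highest share of the 10 lists. The next list stood at 44.4% of 9 peaks, so this rank rests on few peaks and is a description.

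Scaffold, adhesion and axon genes had 6 peaks (1.90%) against 8 (0.282%), with 0.444% over all lines. Celsr3, a cadherin of axon guidance, had its peak 1.05 kb inside (line 2), and Iqsec3, a protein of inhibitory synapses, 0.487 kb inside (line 8). Dlgap3, a scaffold of the postsynaptic density, had one 5.42 kb inside and 0.841 kb from a start of the gene (line 16). Sez6, a membrane protein of dendrites, had one 0.338 kb inside (line 222). Stmn3, a stathmin of neurites, had one 4.21 kb outside (line 42). Dlg2, another postsynaptic scaffold, had one 7.34 kb inside (line 129) and a later one on line 660.

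Transcription factors of neurons and endocrine cells had 4 peaks (1.27%) against 5 (0.176%), with 0.285% over all lines. Insm2, a zinc finger factor related to Insm1, opened the file with a peak 1.46 kb inside its gene (chr12:55600182-55600581). Neurod1, a bHLH factor of neurons and islet cells, had one 1.71 kb inside (line 88). Lhx3 had its peak centred 0.018 kb outside (line 206), and Lhx5, a factor of the same LIM class, 7.71 kb outside (line 161). Insm1 had a peak as well, but on line 543.

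Ion channel genes, taken as all Cacn, Kcn, Scn and Hcn symbols, had 5 peaks (1.59%) against 26 (0.916%), with 0.983% over all lines. The ratio of these shares was the lowest among the neuronal lists. Symbols alone chose the channel genes, so not every gene of this list need be a gene of neurons. The intervals of the first and the later lines overlapped for 4 of the 6 lists. They did not for peptides, granule proteins and transmitter enzymes or for scaffold, adhesion and axon genes. This is a description and singles out no list, since these lines were chosen for genes of neurons. Of the 5 channel peaks, 3 were at Cacng genes, which encode auxiliary subunits of AMPA receptors or calcium channels. Cacng2 (stargazin) had its peak 0.267 kb inside (line 4), Cacng3 0.752 kb outside (line 92) and Cacng5 5.22 kb outside (line 257). Cacna1a, a pore-forming calcium channel subunit, had one 116.1 kb inside (line 218), and Kcnk13, a potassium leak channel, one 4.94 kb outside (line 301).

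Transmitter receptors and transporters had 4 peaks (1.27%) against 9 (0.317%), with 0.412% over all lines. Grin1, the obligate NMDA receptor subunit, had its peak 0.168 kb inside (line 132), and Gabrd, a GABA-A receptor subunit, 0.410 kb inside (line 104). Htr1a, a serotonin receptor, had one 0.883 kb outside (line 90). Grm4, a metabotropic glutamate receptor, had one 44.4 kb inside (line 165).

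**Figure D2:**
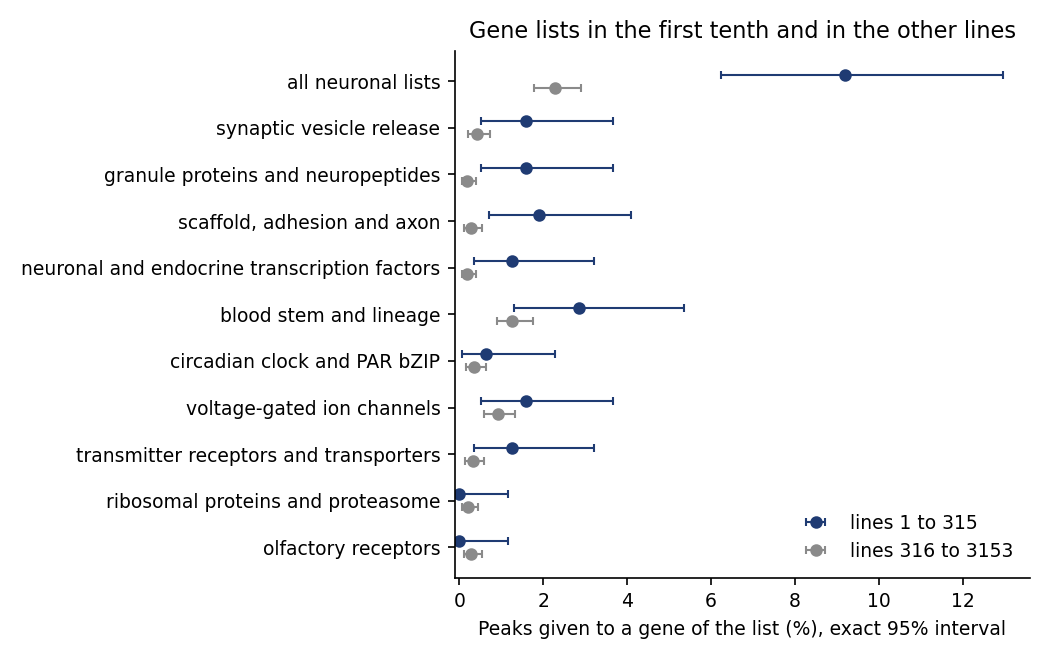
Share of peaks, in percent, given to a gene of each list in the first block of the file and on the later lines (2838 peaks). Points are shares and bars are exact 95% intervals; the pooled neuronal lists stand at 9.21% and 2.29%.

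Lists without a neuronal role were counted in the same way. The 66 blood stem and lineage genes, 0.302% of coding genes, had 9 peaks in the first block (2.86%, 1.31 to 5.35%). They had 36 in the rest (1.27%, 0.890 to 1.75%), and 1.43% over all lines. The ratio of first to later share was 2.25, against 4.02 for the pooled neuronal lists. Among the single neuronal lists it was 1.73 for ion channels and 3.75 to 9.01 for the others. The intervals of the blood list overlapped. By line the 9 peaks began with one 926.6 kb outside Bcl11a, a factor of lymphoid development (line 100). The next lay 4.39 kb outside Id1, an inhibitor of bHLH factors (line 110). Runx1, a factor needed for blood stem cells, had one 110.4 kb inside and 18.3 kb from a start of the gene (line 168). Meis1, a homeodomain factor of stem cells, had one 0.654 kb inside and 0.028 kb from a start (line 175). Clock and PAR bZIP genes had 2 peaks (0.635%) against 10 (0.352%), with 0.381% over all lines. Those were at the clock repressors Bhlhe40, 1.15 kb outside (line 164), and Per1, 3.82 kb inside. The Per1 peak was centred 0.02 kb from a start of Per1. Ribosomal and proteasome genes had 0 against 6 of 2838, with 0.19% over all lines. Olfactory receptor genes had 0 against 8, with 0.254% over all lines. A count of 0 in the first block allows a share of up to 0.952%, taken as 3 counts of its peaks. Hlf, Dbp and Rest were given no peak on any line. Tef had peaks on lines 860 and 1328 and Nfil3 on line 922, so none of these lay in the first block.

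Along the file the neuronal share fell from 9.21% in the first block to 4.44% (2.45 to 7.34%) in the next block of equal size. In the 8 blocks after it the share lay between 0.635 and 3.49%. Within the first block, the neuronal count in successive sets of 63 lines was 10, 6, 4, 6 and 3. The first set held 15.9% (7.88 to 27.3%) and the last 4.76% (0.993 to 13.3%), and the intervals of these sets overlapped. The blood list had 9 peaks in each of the first 2 blocks and 1 to 5 in each later one.

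**Figure D3:**
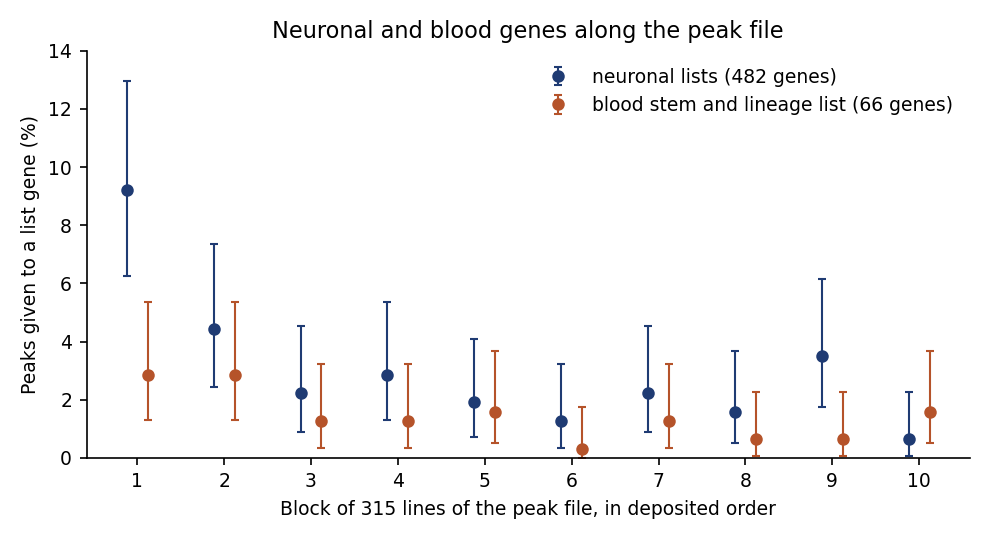
Share of peaks, in percent, given to the neuronal lists and to the blood stem and lineage list in each of 10 successive blocks of equal size. Bars are exact 95% intervals; the neuronal share is 9.21% in block 1 and 4.44% in block 2.

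At the very top of the file genes of the neuronal lists lay among genes outside them. On lines 1 to 20, 6 peaks were given to the neuronal lists, at Insm2, Celsr3, Cacng2, Iqsec3, Dlgap3 and Snap25. The other 14 were at Ptpn11, Dapk2, Disp3, Xkr6, Matn1, Celf4, Ccnc, Galr1, Golga7b, Mc3r, Nsun3, Dlgap4, Kif21b and Mtap. Ptpn11, which encodes the phosphatase SHP2 of cytokine signalling, lay 51.8 kb from its peak. Galr1 (a galanin receptor) and Mc3r (a melanocortin receptor) lay 12.2 and 7.27 kb away. On the last 3 lines inside the limit, Nagk had a peak 3.43 kb outside, Csgalnact1 one 128.9 kb inside and Poc1b one 15.8 kb inside. On the first 3 lines beyond it, Celf6 had one 0.136 kb inside, Stpg2 one 175.8 kb outside and Ssh2 one 73.6 kb inside.

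Placement against genes was not used by the rule, and over the whole first block it was close to that of the rest. Coding genes held 55.6% of the centres (49.9 to 61.1%) and 55.2% of the later ones. A gene end lay within 1 kb of 34 peaks (10.8%, 7.59 to 14.8%) and of 10.9% of the later ones. The median distance to the nearest gene end was 11.7 kb in the first block and 14.2 kb in the rest.

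The neuronal peaks, meaning those at genes of the neuronal lists, are described by their placement too, with no test. These lines were chosen for genes of neurons. Genes outside the lists can be genes of neurons as well, as Hrh3 is. Their median distance to the nearest end of the given gene was 1.05 kb (quartiles 0.410 and 4.94 kb, 29 peaks), against 15.01 kb for the other 286 peaks of the same lines and 24.9 kb for the 65 neuronal peaks on later lines. Within 1 kb of an end were 14 of the 29 (48.3%, 29.4 to 67.5%), 20 of the 286 (6.99%, 4.32 to 10.6%) and 8 of the 65 (12.3%, 5.47 to 22.8%). Without the 15 genes named earlier, which had 17 of the 29 peaks, 3 of 12 were within 1 kb (25%, 5.49 to 57.2%), against 8 of 63 later ones (12.7%, 5.65 to 23.5%), and these intervals overlapped. The median distances were then 4.58 and 17.0 kb. A start site of the given gene was known for 21 of the 29 peaks, and 12 of these 21 (57.1%, 34.0 to 78.2%) were within 1 kb of it, or 2 of 8 without the genes named earlier. For later neuronal peaks this was 6 of 47 (12.8%, 4.83 to 25.7%). At genes outside the neuronal lists, 6.99% of the peaks of the first block were within 1 kb of a gene end. For later peaks outside the lists this was 10.8% (9.69 to 12.03%), and these intervals overlapped.

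**Figure D4:**
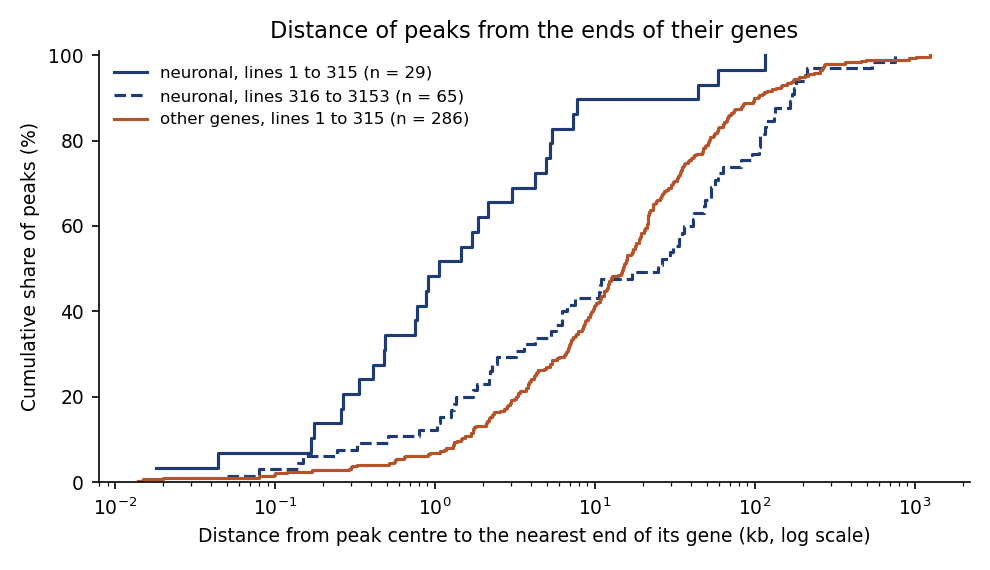
Cumulative share of peaks, in percent, against the distance in kb (log scale) between a peak's centre and the closer end of its gene, for neuronal and other peaks of the first block and neuronal peaks of later lines. The neuronal peaks of the first block reach a share of 48.3% at 1 kb, where the other curves stand at 6.99% and 12.3%.

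Several genes had more than 1 peak in the first block, 11 of the 303 genes. The coding gene LOC108168726 on chromosome 2 had 3, all inside. Vgf and Rph3a are described above. Fosl2, a partner of Jun in AP-1, had 2 inside, 2.19 and 3.12 kb from an end, on neighbouring lines 199 and 200 with centres 0.933 kb apart. Pou2f2, the B cell factor OCT2, had 2 inside whose centres were 4.09 kb apart (lines 64 and 179). Maml2, a coactivator of Notch, had 2 inside, 147.1 and 168.5 kb from an end. Xkr6 had 2 inside, at 75.2 and 106.7 kb, and Xxylt1 had 2 inside, at 16.8 and 59.0 kb. Slc23a2, a vitamin C transporter, had 1 inside and 1 outside. Both peaks given to Acvr2a, an activin receptor, and to Hs6st1, which modifies heparan sulfate, lay 47.4 to 498.7 kb outside. Another peak on any line lay within 5 kb of 24 of these peaks (7.62%, 4.94 to 11.1%) and of 7.43% of the later peaks. For 6 of the 24 that partner was also in the first block, which holds 9.99% of the lines. These 6 are the pairs at Vgf, Pou2f2 and Fosl2, each counted from both sides. For the 211 later peaks with a partner within 5 kb, it was in the first block for 18.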

How the data were processed

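Anti-FLAG ChIP-seq was done on 1 library per arm, and the FLAG-HLF peaks were used. Per the submitters' processing notes, the tools included MACS2, Bowtie2 and bedtools, with no role or version stated, and the build was mm10 (GRCm38). The deposited file gives chromosome, start and end of 3153 intervals, each 400 bases wide. It holds no height or significance, so no test and no stricter threshold could be applied, and replicates could not be compared.

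The first block is lines 1 to 315 of the 3153 in deposited order, and later lines are 316 to 3153. Peak centres (start plus 200 bases) were set against 21887 coding genes of a RefSeq table of GRCm38.p6. The 11 counts per list are the 6 neuronal lists, their union and 4 comparison lists. All 318 symbols written by hand matched the table, and channel, receptor, ribosomal and olfactory genes were taken by symbol pattern. Genes taken by pattern were not checked for use in neurons. Promoter windows (32851, RefSeq, GRCm38.p6) were searched for 17 patterns on both strands, with 1 window per peak, the one with most overlap. Peak sequence outside these windows was not analysed here. The search and the gene assignment were tested on simulated data. Members, lists and patterns were chosen with earlier results of these data known. Named genes are those of lines 1 to 20 and 313 to 318, up to 8 per neuronal and 4 per comparison list in line order, genes with several peaks, the closest RE1 matches, and Hlf, Dbp, Tef, Nfil3 and Rest. Other names were chosen after their values were seen. Shares carry exact Clopper-Pearson intervals at 95%. The computations ran in Python 3.11.15 with scipy 1.17.1, matplotlib 3.10.9, pandas 2.3.3 and numpy 2.4.6.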

Additional observations from a re-analysis of the deposited data

How the results depend on the processing

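With a single peak list and no replicates, each alternative was read against the 95% exact interval of its share. Of 27 alternatives for 7 shares, 22 stayed inside that interval and 5 did not. The neuronal share of 9.21% became 3.81% without the genes named in an earlier account, which removes genes of these lines by construction, and 15.0% in the first 100 lines. Without those genes, the share of neuronal peaks within 1 kb of an end of the given gene was 25% in place of 48.3%. With all genes of the table in place of coding genes, 64.1% of the peaks of the first block lay inside a gene and 16.8% within 1 kb of a gene end. The later lines then had 64.0% and 16.2%. Under the other gene assignments and distance limits the neuronal share was 8.25 to 9.84%, against 1.69 to 2.57% in the rest. The RE1 share was 13.3 to 29.2% under its alternatives, lowest in the first 630 lines (6 of 45). It rested on 24 windows, so it can be placed only between 9.77 and 46.7%. The distance limit for the comparison lists, the placement without genes named earlier, RE1 without the neuronal lists, the match inside the peak and the windows of coding genes alone were chosen after seeing the data. A stricter peak threshold was not run, because the list has no score. No paired analysis was possible because there is 1 library per arm and no peaks of the control arm were analysed.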

Other observations

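The peak at Unc13a had 5 mismatches to RE1 in its usual form. Its bases were looked at again after that, and both parts were found complete but 8 bases apart in place of 2. The search was then repeated over all windows for the parts on 1 strand, 3 to 20 bases apart, with up to 1 mismatch in each part. It found 2 of the 24 windows of the first block (8.33%, 1.03 to 27.0%), 0 of the 175 later ones (up to 1.71%, taken as 3 counts) and 20 of the 32851 in the table (0.0609%). The other window was that of Lrp11, a receptor-related gene, overlapped by the peak on line 205, with 7 bases between the parts. The site at Unc13a lay 9.0 bases from its peak centre and the one at Lrp11 6.5 bases. This search was set up on the Unc13a sequence, so its count includes the site that prompted it. The parts are in capitals, 5′ to 3′, on build GRCm38.p6.

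Unc13a (chr8:71671727-71671752, plus strand): TTCAGCACCgggggcgcGGACAGCGC
Lrp11 (chr10:7589819-7589843, minus strand): ATCAGCACCggcgtgcGGACAGCGG

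By chromosome, the first block had 40 on chromosome 2 (12.7%, 9.23 to 16.9%), against 8.53% of the rest. Of these 40, 6 were at genes of the neuronal lists. Chromosome 3 had 9 (2.86%, 1.31 to 5.35%) against 6.27%. On X there were 3 (0.952%) against 0.775%. The intervals for chromosome 3 did not overlap, 1 of 20 chromosomes looked at, and those for chromosome 2 did.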
